A study of Schmidtea polychroa with 24 samples.

Results

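Of 22365 assembled genes in whole cocoons of the planarian Schmidtea polychroa, 89 had their highest mean level at 72 h after deposition and were at least 3 times lower at both 4 h and 168 h. The level of a gene was the authors' TMM-scaled expression value summed over its assembled isoforms, and a time mean is the mean of 3 libraries. The 60 most abundant genes were set aside, which left 22305. Of these, 3621 had their highest mean at 72 h, 306 of them reached a level of 5 in each 72 h library, and 89 of those also passed the 3-fold step. The list would have been ended at 150 genes, so all that qualified were kept. The members were thus chosen on their levels at 72 h, 4 h and 168 h. Values at these times describe the choice, and no test of them is given.

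Schmidtea polychroa is a freshwater flatworm that lays several fertilised eggs in one capsule, the cocoon, together with a large mass of yolk cells supplied by the mother. The early embryo is built among these yolk cells and forms a temporary embryonic pharynx, with which it swallows them, before the definitive organs of the worm are laid down. Genes used for a temporary structure or a passing step of development can therefore be high for a short time and low before and after it.

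Cocoons of a sexual laboratory population, with no treatment arm, were kept at 20 °C and ground whole at 4 h, 24 h, 32 h, 48 h, 72 h, 96 h, 120 h or 168 h after deposition. Each time had 3 libraries described as biological replicates, each from 4 cocoons, so embryos, their stages and the yolk around them were pooled. All cocoons were treated briefly with dilute bleach before extraction, which per the labels removes mucus and parasites. In such bulk samples, fewer cells of a type and less RNA per cell cannot be told apart. The files give IDs of assembled transcripts with no gene names, so neither the tissue nor the roles of the members could be checked against marker genes, and members other than 4 are called by their rank in the ratio of the 72 h mean to the higher of the 4 h and 168 h means.

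The 24 libraries held 1599902 to 9567933 estimated counts, and the 72 h libraries held 2727027, 2613509 and 1617797 in replicates 1, 2 and 3. The 2 most abundant genes took 53.6% to 61.0% of the counts at 72 h, 13.8% to 15.8% at 4 h and 16.1% to 24.2% at 168 h. At 120 h they took 61.7% in replicate 1 and 26.2% and 25.4% in replicates 2 and 3. Several libraries stood apart from the others of their time over the members. In 48h replicate 2 the level was above both other 48 h libraries in 58 of 89 members, in 120h replicate 1 above both others in 68, and in 168h replicate 1 above both others in 66. Over the 8283 genes with a 72 h mean of at least 5 the same shares were 46.5%, 34.3% and 53.9%. Values without 48h replicate 2 and 120h replicate 1 stand beside the tests they enter. Without 168h replicate 1, which is on neither side of these tests, 92 genes qualified, the 89 members among them.

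Across all members the median of the time means was 2.52, 7.18, 6.80 and 20.6 in turn for 4, 24, 32 and 48 h. It was 42.2 at 72 h, with members between 6.04 and 1261.3. It then stood at 10.7, 9.6 and 3.66 for 96, 120 and 168 h. Relative to the 72 h mean of the same gene, the median member had 8.27%, 33.0%, 33.7% and 62.0% for 4, 24, 32 and 48 h, and then 37.7%, 35% and 11.1% for 96, 120 and 168 h. On the way to 72 h, 60 members already had at least 50% of their 72 h mean at 48 h, and 25 had it at 24 h. After 72 h, 19 members still had at least 50% at 96 h and 20 at 120 h. The second-highest mean was that of 48 h in 57 members, that of 120 h in 13, that of 96 h in 8, that of 24 h in 6 and that of 32 h in 5.

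**Figure D1:**
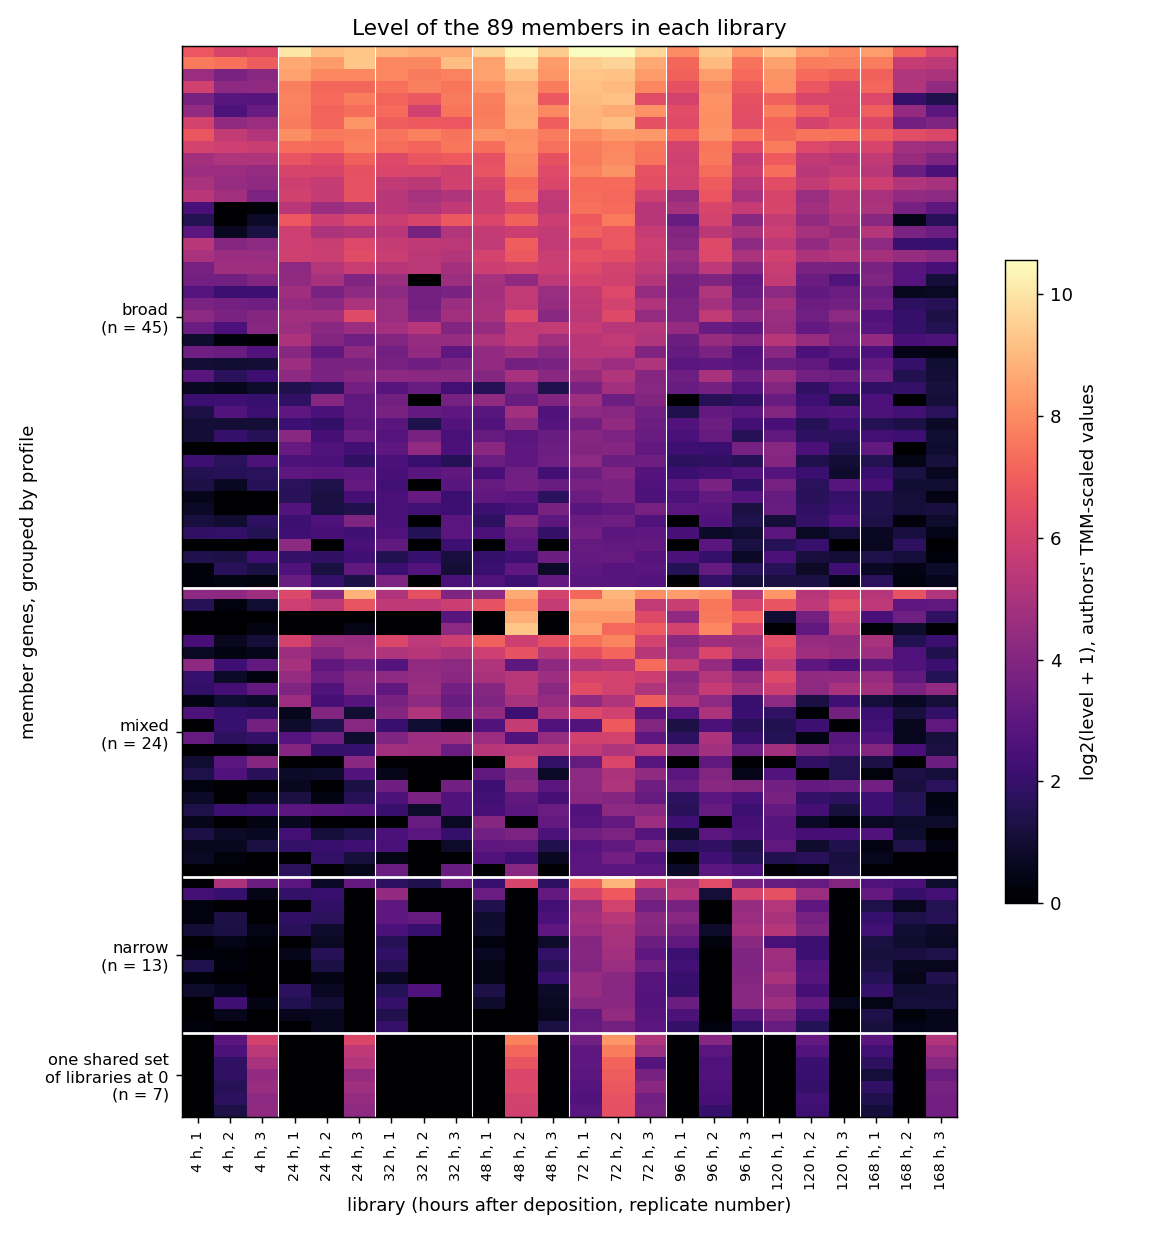
Level of each of the 89 members (rows) in each of the 24 libraries (columns), as log2(level + 1) of the authors' TMM-scaled values, with lighter colours for higher levels. Rows are grouped by profile: 45 broad members, 24 mixed ones, 13 narrow ones and 7 at 0 in the same 13 libraries, and the columns of 72h replicates 1 and 2 and of 48h replicate 2 hold most of the lightest cells.

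The 72 h libraries were far from alike. The median level over the members was 22.2, 60.8 and 16.7 in 72h replicates 1, 2 and 3. At 48 h it was 9.21, 28.8 and 9.36, so 48h replicate 2 was above 72h replicates 1 and 3. At 24 h it was 6.49, 4.26 and 10.1, and at 32 h it was 7.48, 8.21 and 7.29. These early libraries lay above those of 4 h, at 1.52, 2.25 and 2.26, and below every 72 h library. At 96 h the median was 8.57, 11.3 and 9.31, at 120 h it was 16.4, 7.04 and 4.84, and at 168 h it was 4.74, 1.55 and 1.78. Only 120h replicate 1 among these later libraries came near the lowest 72 h library.

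**Figure D2:**
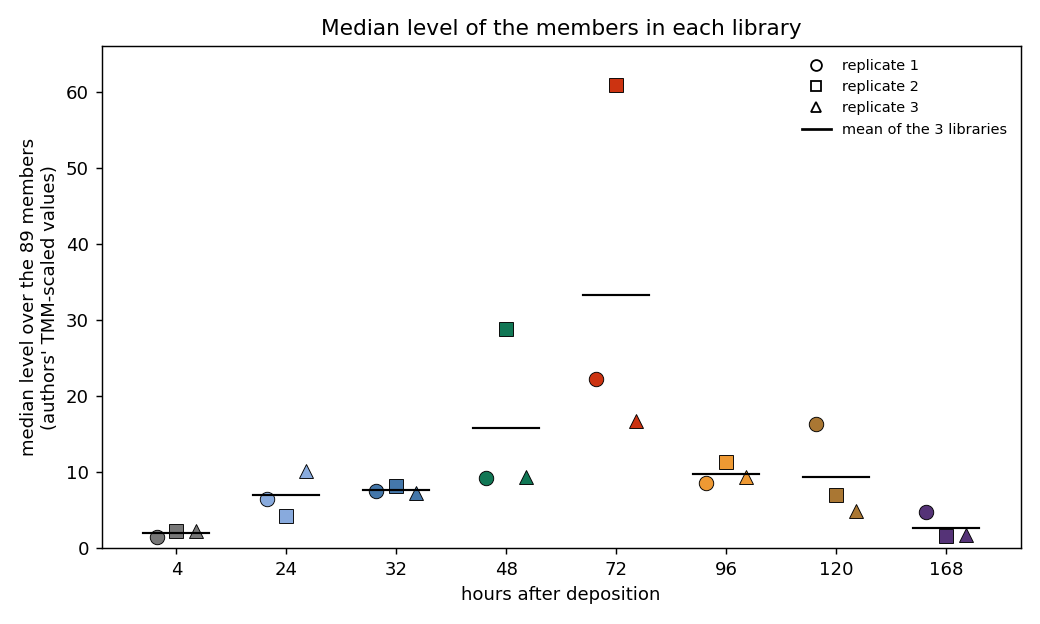
Median level over the 89 members in each library (symbols, 3 per time) and the mean of the 3 libraries (bars) by hours after deposition, in the authors' TMM-scaled values. The 72 h libraries lie at 22.2, 60.8 and 16.7, and 48h replicate 2, at 28.8, lies between them.

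The height of the 72 h mean leaned on replicate 2. It was the highest 72 h library in 53 members, against 30 for replicate 1 and 6 for replicate 3, while replicate 3 was the lowest in 65. Over the genes with a 72 h mean of at least 5, replicate 2 was highest in 30.8% and replicate 3 lowest in 44.2%. Each 72 h library reached 3 times both end means on its own in 51 members, with 76 in replicate 1, 86 in replicate 2 and 56 in replicate 3. A level above every other time mean was found in 74, 86 and 32 members in these replicates. The single highest of all libraries was a 72 h library in 62 members, 48h replicate 2 in 13 and 120h replicate 1 in 5. The members together took 0.858%, 1.16% and 0.386% of the counts of 72h replicates 1, 2 and 3, and 0.924% of those of 48h replicate 2.

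Most members therefore overlapped at least 1 other time when single libraries were compared. All 72 h libraries were above every 4 h library in 79 members and above every 168 h library in 79, against 15.0% and 17.6% of the 15587 genes tested. These counts follow from the choice of members and are read no further. The 72 h libraries were all above every 24 h library in 44 members (10.7% of genes tested), every 32 h library in 58 (9.48%) and every 48 h library in 19 (2.68%). On the later side they were above every 96 h library in 39 members (11.0%) and above every 120 h library in 40 (5.92%). The choice of a highest mean at 72 h bears on these counts too. In 1 member, rank 39, the 72 h libraries lay above all of the other 21 libraries, which held for 0.0192% of genes tested. Its levels were 18.4, 31.6 and 18.6 at 72 h, and the next library was 96h replicate 2 at 15.0, followed by 48h replicate 2 at 13.3.

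With the choice made on only 2 of the 72 h libraries, the library left out could be read apart from it, although the 4 h and 168 h means were the same. Without replicate 1, 126 genes were chosen, 79 of them members, and in 57.9% of the 126 the level in replicate 1 was at least 3 times both end means. This held for 15.5% of all genes with a level of at least 5 in that library. Those genes were not chosen for low ends, and of the 126 only 93 reached a level of 5. A higher share was thus partly built in, here and for the other replicates, and is a description only. Without replicate 2, 91 genes were chosen, 66 of them members, and the share was 84.6%, against 22.3%. Without replicate 3, 977 genes qualified, the highest 150 by ratio were taken, and 6 of these were members. The share in replicate 3 was then 22.7%, against 11.3%, and just 9 of the 150 reached a level of 5 there. A 3-fold level that was also above every other time mean was found in replicate 3 in 2.67% of the 150. It was found in 6.91% of the 7394 genes with a level of at least 5 there, a floor not asked of the 150. The list of members was thus set to a large part by replicate 3: 649 genes met every criterion but the level in that library, against 24 and 6 for replicates 1 and 2. Replicate 3 was also the shallowest of these libraries, and 26 members had fewer than 10 counts in it.

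The counts behind a member differed in the same order. In 72h replicate 1 they ran from 9 to 3378 with a median of 44, in replicate 2 from 12 to 3472 with a median of 108, and in replicate 3 from 4 to 945 with a median of 20. The coefficient of variation between the 72 h libraries had a median of 42.7% over the members. It was larger at the other times, from 51.0% at 32 h to 83.6% at 168 h. The level of at least 5 that the choice asked of each 72 h library limits this spread at 72 h. Over the 8358 genes with a mean of at least 5 it was 30.1% at 72 h, and between 14.5% at 168 h and 61.0% at 120 h, with 32 h (38.5%) and 48 h (32.3%) also above 72 h.

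Members were separated by their early levels into 3 profiles, which were drawn up after the values were seen and carry no test. In 45 broad members the 24 h, 32 h and 48 h means were each at least 25% of the 72 h mean. In 13 narrow members all of these were under 25%, and 31 mixed members had some on either side. The names refer to these earlier times only and not to the levels after 72 h. The median broad member had 16.4%, 51.2%, 45.2% and 73.1% of its 72 h mean for 4, 24, 32 and 48 h, and 39.8%, 35.6% and 13% for 96, 120 and 168 h. The median narrow member had 3.12%, 7.36% and 6.10% for 24, 32 and 48 h, but 41.3% and 55.1% for 96 and 120 h. The median mixed member had 18.2% and 54.7% for 24 and 48 h, and 30.5% and 13.1% for 96 and 120 h.

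Of the 22 members with a 72 h mean of at least 100, 15 were broad. The highest 72 h mean of all members was that of TRINITY_DN237244_c1_g2 (rank 42), at 1261.3 ± 389 (SD, n = 3), with 1467, 1504.2 and 812.8 in replicates 1, 2 and 3. At 4 h it was at 109.2, 67.9 and 81.6, and by 24 h at 1055, 557 and 615.2. It stood at 490.8, 413.8 and 404.8 at 32 h and at 799.8, 1305.4 and 683.5 at 48 h. The first step from 4 h to 24 h separated all libraries of these times, whereas 48h replicate 2 was above 72h replicate 3. After the peak the levels were 261.7, 678.4 and 321.6 at 96 h, 638.8, 337.1 and 248.9 at 120 h, and 332.8, 134.1 and 70.0 at 168 h. Every library from 96 h on lay below every 72 h library, and every 168 h library lay below every 24 h library.

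The next highest mean was that of TRINITY_DN243786_c3_g3 (rank 76), at 633.7 ± 211 (SD, n = 3), from 713.2, 792.9 and 394.8. It was at 192.9, 171.9 and 121.4 at 4 h, at 396.3, 324.5 and 637.3 at 24 h, and at 247.0, 242.4 and 559.5 at 32 h. At 48 h it was at 363.6, 877.3 and 326.2, so its highest single library was 48h replicate 2 and not a 72 h library. It was at 145.1, 526.0 and 177.5 at 96 h, at 361.3, 206.2 and 210.7 at 120 h, and at 206.6, 49.6 and 43.7 at 168 h. From 24 h on 1 library stood well above the others at all times but 72 h, namely replicate 3 at 24 h and 32 h, replicate 2 at 48 h and 96 h, and replicate 1 at 120 h and 168 h.

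**Figure D3:**
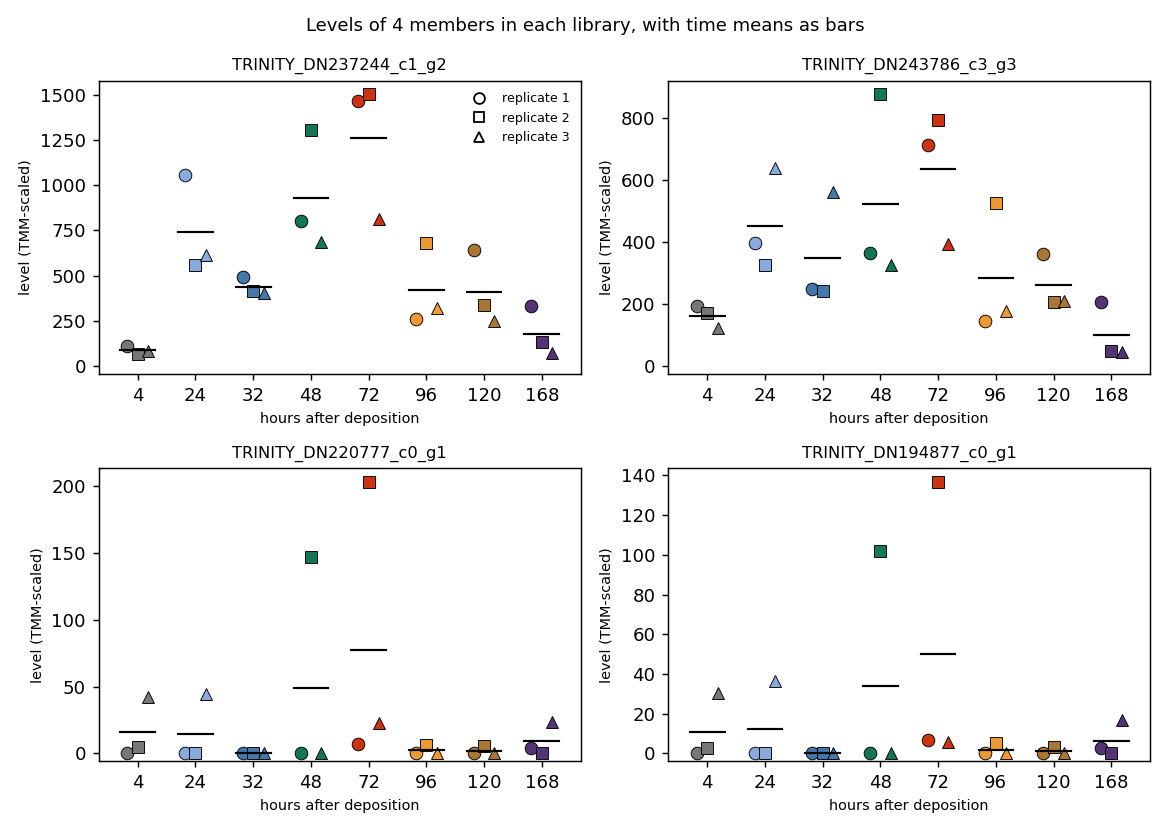
Level of 4 members in each library (symbols by replicate) with time means (bars), by hours after deposition, in the authors' TMM-scaled values on linear axes that start near 0. In the upper panels the 4 h libraries lie below the 24 h ones, while in the lower panels 1 library at 48 h (147.4 and 101.9) and 1 at 72 h (203.2 and 136.7) carry most of the level.

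The step from 4 h to 24 h was seen in single libraries of most broad members. Every 24 h library was above every 4 h library in 35 of the 45, and in 43 of the 70 members outside the library-linked sets described next, against 7.56% of genes tested. The choice bounds the 4 h mean of every member from above, and the broad profile also bounds the 24 h mean from below. Shares above that of all genes tested were thus partly built in, and these counts are a description only. Of the 45, 33 were above 0 counts in all libraries. Rank 40 was a broad member with more even libraries, at 30.5, 23.4 and 33.1 at 72 h. It was at 1.08, 0.958 and 1.10 at 4 h, at 24.1, 12.8 and 12.4 at 24 h, at 11.4, 9.76 and 12.4 at 32 h, and at 19.5, 11.0 and 12.2 at 48 h. It was at 6.61, 7.04 and 6.17 at 96 h, at 8.96, 7.42 and 4.12 at 120 h, and at 7.81, 2.98 and 1.02 at 168 h. In this gene 24h replicate 1 was just above the lowest 72 h library, and all other libraries outside 72 h lay below it.

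A group of 7 members, all mixed, was detected in a fixed set of libraries and was called the shared-zero set. All 7 (ranks 46, 52, 53, 56, 59, 60 and 65) were at 0 counts in the same 13 libraries and above 0 in the same 11. The libraries at 0 were 4h replicate 1, 24h replicates 1 and 2, all 32 h libraries, 48h replicates 1 and 3, 96h replicates 1 and 3, 120h replicates 1 and 3, and 168h replicate 2. The median level over the set was 123.5 in 72h replicate 2, 76.0 in 48h replicate 2, 24.6 in 24h replicate 3 and 23.3 in 4h replicate 3. It was 6.69 and 12 in 72h replicates 1 and 3 and 12.1 in 168h replicate 3. The highest time of this set was therefore that of 1 library, with medians more than 10 times lower in its replicates.

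TRINITY_DN220777_c0_g1 (rank 59) belongs to this set and had the lowest 96 h mean relative to 72 h among members with at least the median 72 h mean. Its levels were 6.93, 203.2 and 22.8 in 72h replicates 1, 2 and 3, a mean of 77.7 ± 109 (SD, n = 3). It was at 147.4 in 48h replicate 2, 44.1 in 24h replicate 3, 5.02 and 41.9 in 4h replicates 2 and 3, 6.53 in 96h replicate 2, 5.72 in 120h replicate 2, and 3.92 and 23.2 in 168h replicates 1 and 3. All other libraries were at 0. The 72 h libraries overlapped those of 4 h, 24 h, 48 h and 168 h and lay above the rest. TRINITY_DN194877_c0_g1 (rank 65), the next by the same order, had 6.87, 136.7 and 5.92 at 72 h, a mean of 49.8 ± 75.2 (SD, n = 3). It was at 101.9 in 48h replicate 2, 36.4 in 24h replicate 3, 2.58 and 30.2 in 4h replicates 2 and 3, 5.20 in 96h replicate 2, 3.39 in 120h replicate 2, and 2.48 and 16.8 in 168h replicates 1 and 3. The SD exceeded the mean at 72 h in both genes, and in both a 4 h library was above 72h replicates 1 and 3.

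The proportions between the 7 members moved little next to their levels. Rank 60 made up 21.5% to 35.1% of the summed level of the set over the 11 libraries, rank 59 14.3% to 22.1%, and rank 65 5.24% to 15.3%. In the whole assembly 57 genes had exactly these 13 libraries at 0 and the other 11 above 0, and all 57 had their highest mean at 72 h. A wider group of 164 genes was at 0 in the same 13 libraries and above 0 in the 5 where the set was highest, and 158 of them had their highest mean at 72 h. The 7 members are among the 57 and the 164, and their highest mean at 72 h was fixed by the choice. What the cocoons of these libraries shared was not tested, and the IDs give no organism or gene for these transcripts.

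Another group of 12 members made up nearly all of the narrow profile and was called the narrow set. It was formed from narrow members by the libraries that most of them had at 0, so the shared zeros describe how it was drawn up. Its members (ranks 6, 7, 8, 12, 16, 18, 19, 20, 21, 25, 27 and 32) were all at 0 counts in 24h replicate 3, 32h replicate 3 and 48h replicate 2, and all above 0 in 13 other libraries, including the 72 h and 168 h ones. In 120h replicate 3, 11 of the 12 were at 0, and in 96h replicate 2, 8 were. The median level over the set was 18.8, 24.8 and 8.45 in 72h replicates 1, 2 and 3. At 96 h it was 6.19, 0.0 and 16.5, and at 120 h it was 25.2, 5.90 and 0.0. The highest median of all libraries was thus that of 120h replicate 1. Before 72 h no library had a median above 2.82, that of 32h replicate 1, and the 168 h libraries had 1.63, 0.959 and 1.13.

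Rank 16 was the most abundant gene of the narrow set. Its levels were 67.5, 114.8 and 17.5 at 72 h, 38.3, 1.11 and 66.1 at 96 h, and 93.9, 22.9 and 0.0 at 120 h. At 4 h it was at 4.05, 3.15 and 0.345, at 24 h at 2.75, 3.21 and 0.0, at 32 h at 19.4, 0.0 and 0.0, and at 48 h at 9.21, 0.0 and 7.90. The 168 h libraries were at 7.94, 3.00 and 3.98. The libraries of 72 h, 96 h and 120 h overlapped in this gene, and 32h replicate 1 was above 72h replicate 3. In the assembly 39 genes shared the libraries at 0 and above 0 of the narrow set, of which 28 had the highest mean at 72 h and 8 had it at 120 h. Both the 39 and the 28 include the 12 members of the set, whose highest mean at 72 h was fixed by the choice. The remaining narrow member, rank 11, did not have these libraries at 0 and was at 127.7, 489.9 and 54.4 at 72 h and 68.0 in 48h replicate 2.

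**Figure D4:**
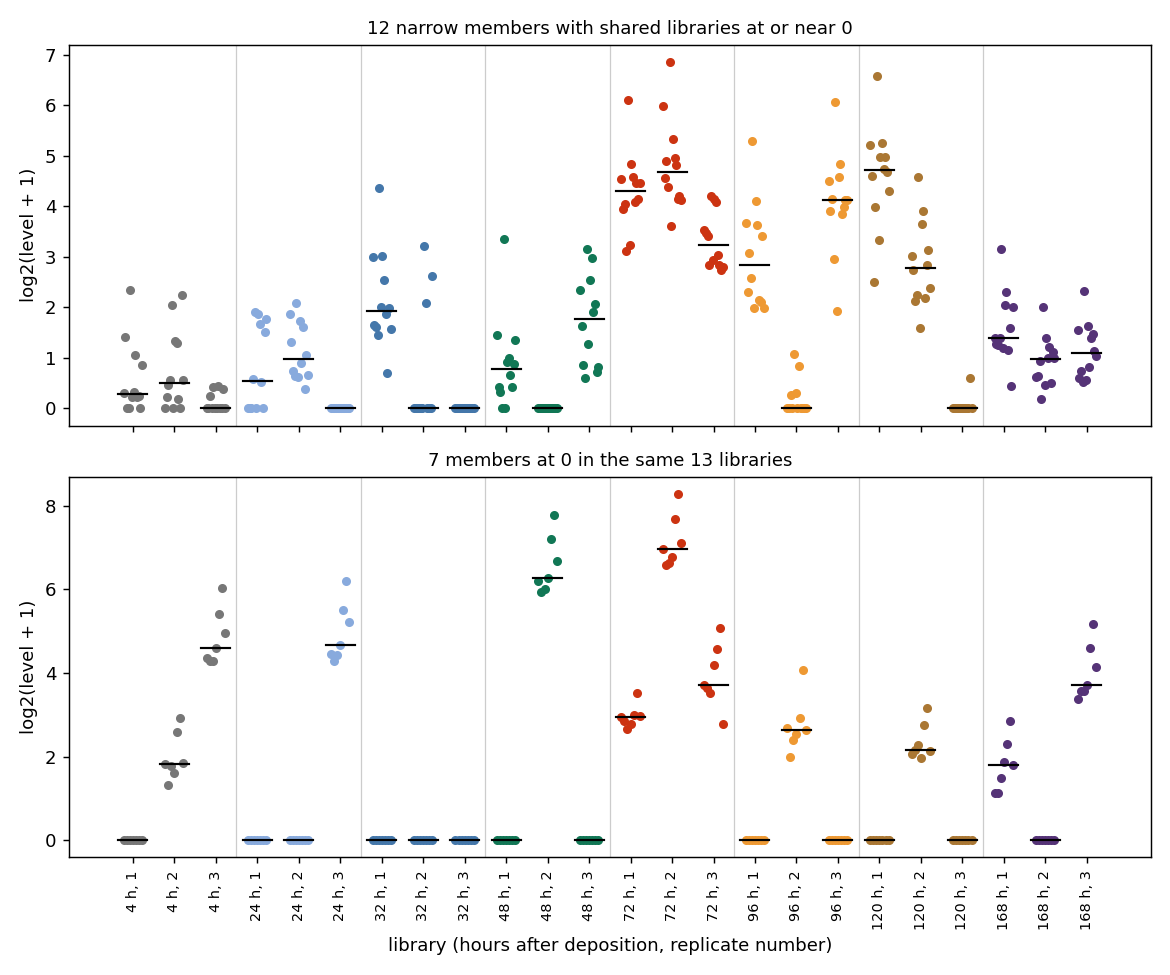
Level of the 12 members of the narrow set (upper panel) and the 7 of the shared-zero set (lower panel) in each library, as log2(level + 1) of the authors' TMM-scaled values; each point is a gene and each bar the median of the set in that library. In the lower panel every point is at 0 in the same 13 libraries, and in the upper panel the points of 48h replicate 2 and of 24h and 32h replicate 3 are all at 0.

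Among the members of highest ratio, levels were also uneven between libraries. Rank 2, with the highest finite ratio of 650.5, was at 373.9, 149.9 and 118.9 at 72 h. It was at 0.0, 635.5 and 0.0 at 48 h, at 67.1, 241.4 and 66.6 at 96 h, and at 0.0, 7.5 and 36.8 at 120 h. The 4 h, 24 h and 168 h libraries were all at 0.837 or lower, and 32 h was at 0 in replicates 1 and 2 and 18 in replicate 3. The ratio thus rests on ends near 0, and the 48 h mean of 211.8 ± 367 (SD, n = 3), carried by 1 library, nearly equalled the 72 h mean of 214.2 ± 139. Rank 3 differed from most members in that 72h replicate 3 was its highest library, with 19.5, 34.0 and 122.6 at 72 h. The ratio had a median of 6.51 over the members, with 25 at 10 or more and 31 under 5. The last members inside the 3-fold step had ratios of 3.17, 3.06 and 3.06, and the first outside it 2.97, 2.97 and 2.91. In 1 member, rank 1, both ends were at 0 in all libraries, and its 72 h levels were 6.81, 6.68 and 6.62. These rested on 13, 12 and 6 counts. It was higher in single earlier libraries, at 9.26, 0.0 and 8.98 at 32 h and at 0.0, 16.3 and 0.0 at 48 h.

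Times other than 72 h, 4 h and 168 h were compared across all 15587 genes tested with edgeR's quasi-likelihood test on gene-summed counts, with a call where the p adjusted by Benjamini-Hochberg was under 0.05. All 89 members were among the genes tested. The choice holds each of these times below the 72 h mean of a member but sets no order among them. It is not wholly independent of them, so the members' counts and medians are set beside those of all genes as a description. The first comparison asked whether members stood higher after 72 h (96 h and 120 h) than before it (24 h, 32 h and 48 h). Of the 89, 12 were higher and 9 lower after 72 h, 23.6% in all, while 48.7% of all genes tested were called, 29.6% higher and 19.0% lower. The share of calls among the members was thus not above that of all genes in either direction. The median log2 difference over members was -0.49, against 0.48 over all genes tested. It was -0.51 over the 80 members with counts at each of these 5 times.

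Of the 12 higher members 10 belonged to the narrow set and 2 were mixed (ranks 4 and 89), and all 9 lower ones were broad. The profiles were defined by the 24 h, 32 h and 48 h levels, which are the earlier side of this comparison, so this division was built in and only describes which members were called. Rank 25, of the narrow set, rose most among the members with counts at each time, with a log2 difference of 4.42 (SE 1.2, edgeR adjusted p = 0.00372). It was at 3.29, 0.0 and 14.8 at 96 h and 30.6, 6.10 and 0.0 at 120 h, and none of the 24 h, 32 h and 48 h libraries was above 3.20. With 96h replicate 2 and 120h replicate 3 at 0, the groups overlapped. Rank 89 rose by 0.94 (SE 0.38, edgeR adjusted p = 0.0448), from levels of 5.24 to 38.3 before 72 h to 18.2 to 54.0 after it.

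Among the broad members, rank 74 fell by 1.32 on the log2 scale (SE 0.39, edgeR adjusted p = 0.00881). It was at 24.1, 16.8 and 23.4 at 24 h, at 27.3, 38.1 and 14.6 at 32 h and at 21.1, 45.1 and 48.0 at 48 h. After the 72 h levels of 49.3, 39.6 and 37.8 it was at 20.7, 8.82 and 7.18 at 96 h and at 22.1, 8.00 and 10.4 at 120 h. Rank 9 fell by 1.58 (SE 0.60, edgeR adjusted p = 0.0344), with 53.4 to 133.1 before 72 h and 8.57 to 66.7 after it, and it was near 0 at 4 h, at 1.90, 0.0 and 0.747. TRINITY_DN237244_c1_g2 fell by 0.87 (SE 0.33, edgeR adjusted p = 0.0350), and TRINITY_DN243786_c3_g3 fell by 1.00 (SE 0.35, edgeR adjusted p = 0.0224). Levels before and after 72 h overlapped in each of these 4 genes.

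The split of these calls turned on single libraries and on the test. Without 120h replicate 1, 3 members were higher and 23 lower, of which 2 higher ones were in the narrow set, and all 9 lower calls were kept. Without 48h replicate 2, 13 were higher and 3 lower, and without 120h replicate 3, 12 were higher and 1 lower. Without 96h replicate 3 there were 4 higher and 3 lower. With the size factors of DESeq2 instead of TMM scaling, which moved the median of all genes from 0.48 to 0.66, 14 were higher and 5 lower, and limma-voom gave 4 higher and 20 lower. Across all 32 settings the median over members stayed below that of all genes tested. Shares of all genes called were taken in the main fit only, so calls in other settings, here and below, have none beside them.

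**Figure D5:**
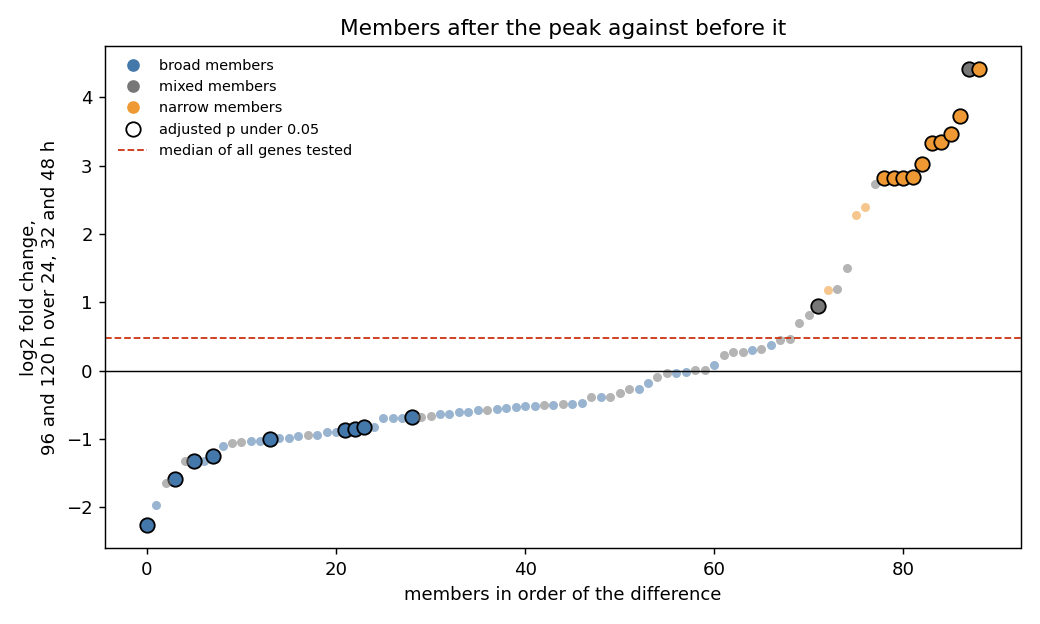
Log2 difference of each of the 89 members between 96 h and 120 h together and 24 h, 32 h and 48 h together (edgeR), in order of size, coloured by profile, with calls at an adjusted p under 0.05 ringed and the median of all 15587 genes tested (0.48) as a dashed line. The ringed points at the upper end are narrow or mixed members (12) and those at the lower end are broad members (9), an order built in because the 24 h, 32 h and 48 h levels also define the profiles.

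The approach to 72 h was tested as 48 h against 24 h. No member was called (0 of 89), and 1 of all genes tested was, 0.00642%. At an unadjusted p under 0.05 there were 7 members, and 1915 of all genes, or 12.3%. The log2 difference was above 0 in 79 of 89 members with a median of 0.81, against 0.24 over all genes tested, and DESeq2 called 3 members higher. Without 48h replicate 2 the median over members was 0.32, against 0.0 over all genes. The rise of the median member between these times was thus not shown beyond the spread between libraries for any single gene by edgeR.

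The nearest times on either side of the peak were compared as 96 h against 48 h. Rank 74 was lower at 96 h, by 1.81 on the log2 scale (SE 0.59, edgeR adjusted p = 0.0309). It was the 1 member called, while 24.2% of all genes tested were, 13.5% higher and 10.8% lower. At an unadjusted p under 0.05 there were 15 members, and 5527 of all genes, or 35.5%. The difference was below 0 in 70 of 89 members, with a median of -0.90 against -0.19 over all genes. For TRINITY_DN237244_c1_g2 it was -1.36 (SE 0.51, edgeR adjusted p = 0.0572) and for TRINITY_DN243786_c3_g3 it was -1.2 (SE 0.53, edgeR adjusted p = 0.106). Without 48h replicate 2 the median was -0.33 over members, against 0.0 over all genes. The lower call was then lost, and 2 members were called higher and 0 lower. With DESeq2 size factors the 1 member called was higher. A fit of these 6 libraries alone tested 69 members and called 15 of them lower. Leaving out 48h replicate 3 or 96h replicate 3 gave 0 calls, and leaving out 96h replicate 2 gave 9, of which 8 were lower.

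The last of these comparisons was 120 h against 96 h. No member was called by edgeR (0 of 89), as for all genes tested (0%). At an unadjusted p under 0.05 there were 0 members, and 698 of all genes, or 4.48%. In simulated counts this comparison called 15% of genes raised 4-fold and 55% of those raised 16-fold. For 48 h against 24 h these shares were 18% and 54%. A lack of calls therefore does not show that levels were unchanged. DESeq2 and limma-voom also called 0 members. The median difference was -0.02 over members and 0.07 over all genes, and without 120h replicate 1 it was -0.93 over members, against -0.06.

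The assembly of the members was looked at last, since a gene's level sums its isoforms. The 89 members had a median of 2 isoforms, up to 24, and 29 (32.6%) had 1, against a median of 3 and 29.2% with 1 among the 8194 other genes with a 72 h mean of at least 5. In the narrow set 9 of 12 had 1 isoform. The most abundant isoform held a median of 74.2% of a member's level, against 84.7% in the other genes. Of the 371 isoforms listed for members, 174 reached a time mean of 5, and 133 of these had their highest mean at 72 h and 19 had it at 48 h. In 75 members the most abundant isoform was itself highest at 72 h. Of the 40 members with 2 or more such isoforms, 13 had all of them highest at 72 h, so in the other 27 at least 1 isoform of that level was highest at another time.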

How the data were processed

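Stranded polyA RNA of 24 libraries was sequenced as read pairs of 100 bp, per the labels' protocols. Tools listed in the submitters' processing notes are RSEM, edgeR 3.40.2, limma 3.54.2, R 4.2.2, FastQC 0.11.2 and Trimmomatic 0.32. An aligner is not given in the sources used here. Expected counts were deposited per Trinity transcript (RSEM estimated counts), and also a TMM-scaled expression signal made by the authors, per the file headers. Counts per unit of signal were scaled to the median of each library. They were nearly constant for a transcript (median SD 0.058 on the log2 scale over 4715 transcripts). Between transcripts they differed, with quartiles of 0.66 and 1.31 over main isoforms of 6277 non-member genes with a 72 h mean of at least 5. Levels therefore appear scaled for length, though the unit is not stated.

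Both were summed per assembler gene. Levels chose and described the members. Rounded counts were tested with edgeR 4.0.16 in R 4.3.3 (TMM, filterByExpr, glmQLFit and glmQLFTest, 1 fit of all 24 libraries, 15587 genes, adjusted p by Benjamini-Hochberg); the common biological coefficient of variation was 0.684. Standard errors are the unshrunk coefficient over the square root of F. Scripts were tested on simulated data. The depth was 1599902 to 9567933 counts, so 3 counts equalled 0.314 to 1.88 CPM, for counting error only. Members and profiles were chosen with earlier results of these data known. IDs printed are the 2 members with the highest 72 h mean and the 2 with the lowest 96 h mean relative to 72 h among members with at least the median 72 h mean; other members singled out were chosen after their values were seen. Alternatives were DESeq2 1.42.0, limma 3.58.1, other filters, thresholds and pseudocounts, the most abundant isoform, the replicate number as a block, and libraries left out. No replicates agreed within sampling noise (chi-square per degree of freedom at least 8.16).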

Additional observations from a re-analysis of the deposited data

How the results depend on the processing

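The median of the 48 h mean relative to 72 h (62.0%) and that of 96 h (37.7%) ran from 44.9% to 78.8% and from 28.6% to 44.8% with 1 library left out. The SD between the 3 libraries of the time was 32.1 and 17.8 percentage points, so these medians are loosely set. The count of genes that qualify moved with the settings. It was 55 with CPM from counts (49 of them members), 139 with a 2-fold and 58 with a 5-fold step. It was 305 with a level of 1 and 49 with a level of 10. Dropping single libraries of 4 h, 72 h or 168 h gave 87 to 977, with 977 for 72h replicate 3. Single libraries of the other times were not dropped for this count. It was 103 without both 48h replicate 2 and 120h replicate 1, a setting added after the data were seen. After against before 72 h, 21 members were called, and 3 at an adjusted p under 0.01. It was 10 of 88 tested with the most abundant isoform and 7 to 27 with 1 library left out. For 48 h against 24 h DESeq2 called 3 and each other setting 0, with 0 to 0 when 1 library was left out, and for 120 h against 96 h every setting gave 0. For 96 h against 48 h the 1 call became 0 at an adjusted p under 0.01, without a low-count filter and with the most abundant isoform. It became 15 of 69 members tested in the 6 libraries alone, 10 with limma-voom and 3 with DESeq2. Limma-trend gave 3 on log2(value + 1) and 2 on log2(value + 0.25), and leaving out 1 library gave 0 to 9. The count was 6 without both 48h replicate 2 and 120h replicate 1, and 6 without these and 72h replicate 2. Both alternatives were added after the data were seen. With the replicate number as a block the calls were 20 after against before 72 h, 9 higher and 11 lower, 3 for 96 h against 48 h, and 0 for the other comparisons. The numbers did not pair the libraries: the 84 same-numbered pairs had correlations of -0.62 to 0.52 with a mean of -0.01, 26 of them over 0.1, and 13 of 24 libraries correlated better with their own number. The cause of these differences was not tested. Where the fitted differences are of members at 0 in all libraries of a time, they depend on the prior count.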

Other observations

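A larger group of genes behaved like the members in only 2 of the 72 h libraries. The 649 genes that met all criteria except the level in 72h replicate 3 had median levels of 10.2 and 14.7 in 72h replicates 1 and 2 and 0.0 in replicate 3, where 86.3% of them had 0 counts. Their median was also above 0 in 4h replicates 2 and 3 (2.23 and 0.542), 48h replicate 2 (0.516), 96h replicate 2 (2.61) and 120h replicate 3 (2.16), and 0 in the other libraries. In 96h replicate 2 and 120h replicate 3, 7.70% and 9.55% of these genes were at 0 counts, against 54.4% to 74.7% in the other libraries of those times. They were chosen on the 72 h levels, so the values at the other times are a description.

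The same criteria with the peak moved to another time were met by 3, 43, 54, 112 and 7 genes for 24, 32, 48, 96 and 120 h, beside the 89 for 72 h. Main isoforms of the members could be compared in length with those of other genes in only 49 of 89 cases (55.1%), so that comparison was void.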
